A study of Mus musculus with 14 samples.

Results

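The expression of 10 genes was examined in bulk RNA sequencing of lung and gastrocnemius, a calf muscle, of mice: 9 genes of secreted factors linked to cachexia outside the gp130 and activin families (Gdf15, Spp1, Pthlh, Tnf, Il1a, Il1b, Tnfsf11, Tnfsf12 and Adm) and Tnfrsf12a, the receptor of the Tnfsf12 product. They were chosen by symbol and all 10 were found among the 55416 genes listed in each library. The series looked for targets shared by cachexia, the wasting of muscle in cancer, and muscle side effects of immune therapy. The tumour-bearing groups (TB) hold 5 lung and 3 gastrocnemius libraries, and the control groups (CON) hold 3 lung and 3 gastrocnemius libraries. The protocol, attached to every sample, describes male C57BL/6 (C57BL/6NCrlOri) mice of 6 to 8 weeks given 5000000 cells of 1 line, KrasIKKaL, through the trachea. The labels state neither what CON mice were given, nor the tumour load or the time of sampling, nor whether the libraries of a group are separate animals, so the p-values below measure a spread that may be technical. TB lung can hold injected cells as well as host tissue, and no label separates them.

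Cachexia factors are proteins released by a tumour, by the host's immune cells or by stressed tissue that act on the brain, fat or muscle. GDF15 acts on hindbrain neurons through the receptor GFRAL with its partner RET and lowers food intake. Tumour necrosis factor and interleukin-1 are inflammatory cytokines that activate NF-kappaB, and TWEAK, the product of Tnfsf12, activates it in muscle through its receptor Fn14, the product of Tnfrsf12a, which is low in resting mouse muscle and rises after denervation. Osteopontin (Spp1) is a secreted ligand of integrins and CD44, PTHrP (Pthlh) acts on the parathyroid hormone receptor, RANKL (Tnfsf11) drives osteoclasts, and adrenomedullin (Adm) is a vasodilator peptide that signals through CALCRL with a RAMP partner.

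Total counts ran from 47947363 to 61087315 per lung library and from 32476194 to 44169410 per muscle library. A count of 0 allows up to 3 counts, or 0.0491 to 0.0626 counts-per-million (CPM) in lung and 0.0679 to 0.0924 CPM in muscle, for counting error only. The alveolar gene Sftpc had 2.38 to 480 unscaled CPM in TB lung, against 14002 to 16359 in CON lung, and a count of 0 in all 6 muscle libraries, while the muscle actin gene Acta1 was at 11298 CPM or more in muscle and at most 0.399 in lung. Every TB lung library thus had Sftpc far below every CON lung library. Over all genes tested in lung, 11513 of 19300 (59.7%) passed an adjusted p of 0.05, 5862 higher and 5651 lower in TB. In muscle 2196 of 14373 (15.3%) passed.

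Marker lists moved with the lung comparison, and their part in the results below was not tested. Their calls are to be read beside 30.4% of all genes called higher and 29.3% called lower in TB lung. Summed levels in TPM, abundances divided by transcript length and scaled to a common total, were 35.4 to 5144 in TB lung against 147648 to 155820 in CON lung for 5 alveolar markers, all of which fell. All 6 epithelial keratin and adhesion markers rose, with 8710 to 14216 TPM in TB lung against 1130 to 1210 in CON lung. Of 9 macrophage and monocyte markers 4 fell, 1 rose and 4 did not pass, with 216 to 953 TPM in TB lung and 6096 to 6548 in CON lung. Their median log2 change was 0.0035, beside 0.07 over all genes, so the fall of the sum was not shared by all members. All 5 endothelial markers fell, with 38.1 to 64.1 TPM in TB lung and 925 to 1021 in CON lung. In such bulk samples fewer cells of a type and less RNA per cell cannot be told apart.

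In TB lung, Spp1 was the highest of the 10 genes at 2653 ± 1434 TPM (SD, n = 5) and Tnfrsf12a followed at 424 ± 117 TPM, each above the next gene in every library. In CON lung the same genes led, at 94.3 ± 18.02 and 86.3 ± 6.17 TPM (n = 3), and their ranges overlapped. Tnfsf12, Il1b and Adm came next in both groups, at 13.9 ± 4.84, 5.33 ± 2.55 and 4.84 ± 3.18 TPM in TB lung, against 48.1 ± 3.37, 21.2 ± 1.24 and 20.4 ± 6.60 TPM in CON lung. Gdf15 was the ninth in TB lung, at 0.580 ± 0.253 TPM, and the sixth in CON lung, at 8.80 ± 0.946 TPM. From Tnfsf12 down, each gene's range in TB lung overlapped that of the gene after it. Tnfsf11 was the lowest in both, at 0.232 ± 0.183 TPM in TB lung and 0.253 ± 0.0462 TPM in CON lung.

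Muscle held less of most of these transcripts. Tnfrsf12a led there, at 60.6 ± 37.8 TPM in TB muscle and 17.8 ± 11.1 TPM in CON muscle (SD, n = 3 each), above the next gene in every library of both groups. Adm was the second in TB muscle, at 6.04 ± 5.32 TPM, and the fifth in CON muscle, at 0.577 ± 0.0702 TPM. Gdf15, Tnf and Il1b each averaged under 0.1 TPM in both muscle groups, and Il1a and Tnfsf11 had a count of 0 in all 6 muscle libraries. The range of Adm in TB muscle overlapped that of Tnfsf12, the gene after it.

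**Figure D1:**
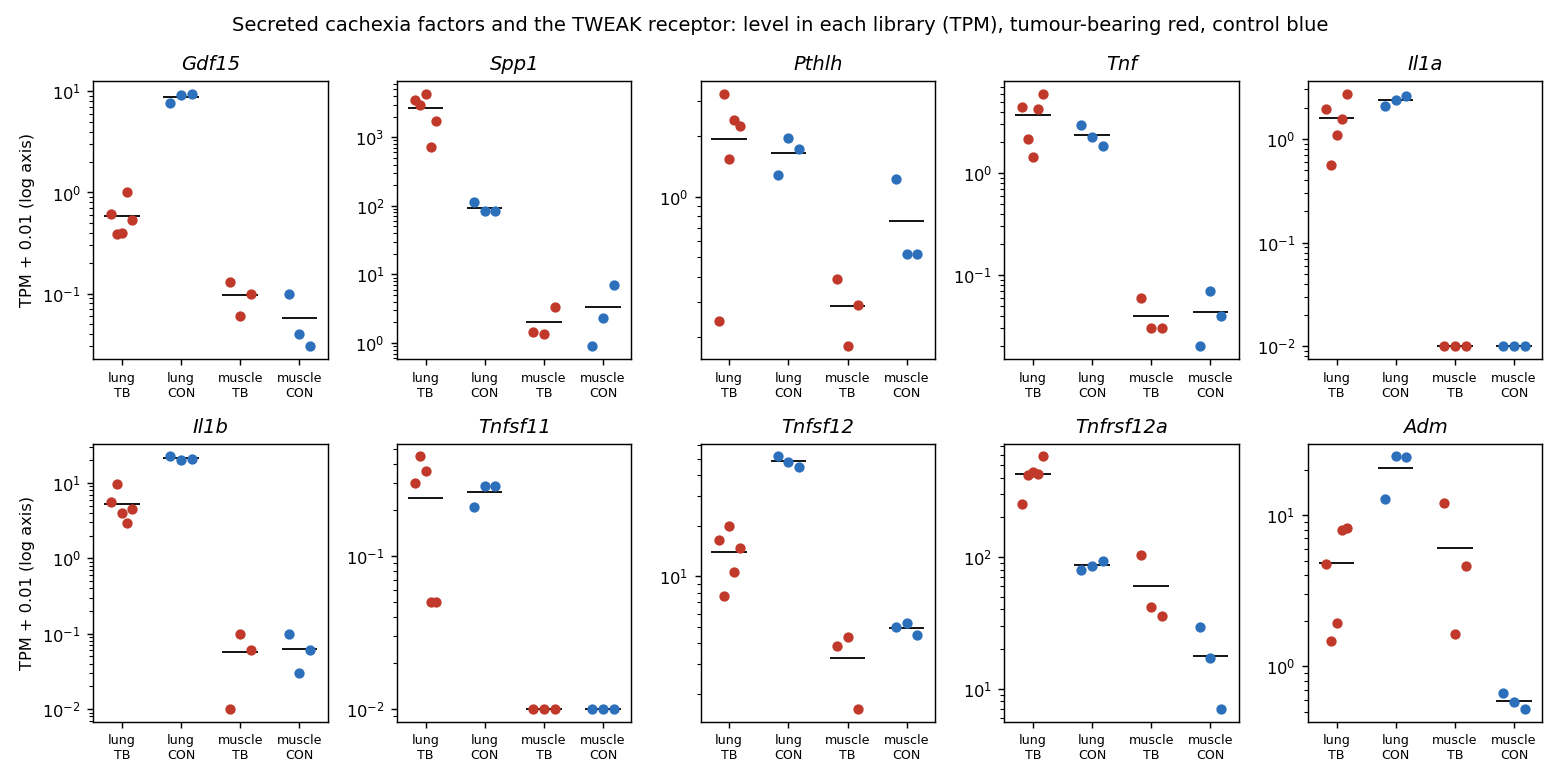
Level of each gene in each library (dots, TPM with 0.01 added, log axis) in lung and gastrocnemius of tumour-bearing (TB, red) and control (CON, blue) mice, with the group mean as a line. TB lung libraries lie apart from CON lung libraries for Spp1 and Tnfrsf12a (above) and for Gdf15, Il1b, Tnfsf12 and Adm (below), and TB muscle libraries lie above CON muscle libraries for Tnfrsf12a and Adm and below them for Pthlh and Tnfsf12.

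In lung, 2 of the 10 genes rose (Spp1 and Tnfrsf12a), 4 fell (Gdf15, Il1b, Tnfsf12 and Adm) and 4 did not pass (Pthlh, Tnf, Il1a and Tnfsf11). That is 6 of 10 called where 59.7% of all genes tested were called, 30.4% higher and 29.3% lower, and the same 6 had groups that did not overlap, as did 63.0% of all genes tested, so the counts are near the background. The median log2 fold change of the 10 was 0.09, beside 0.07 over all genes. Levels in the next paragraphs are CPM relative to TMM-scaled library sizes, and changes are log2 fold changes of TB over CON with standard errors (SE) from edgeR's quasi-likelihood test, adjusted by Benjamini-Hochberg over all genes tested.

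Spp1, or osteopontin (ENSMUSG00000029304), had 3918, 3443, 4625, 856 and 2130 CPM in the 5 TB lung libraries, against 94.4, 71.8 and 71.0 CPM in the 3 CON lung libraries. The lowest TB library was thus several times the highest CON library, and TB libraries 4 and 5 were lower than the other 3. The log2 change was 5.24 (SE 0.60, adjusted p = 0.000102), a 37.9-fold difference, and 4.57 on log2(TPM + 1). Among all genes ordered by TPM, Spp1 ranked between 29 and 187 in TB lung and between 1015 and 1371 in CON lung, and it took 0.0800% to 0.460% of all counts in TB lung against 0.00780% to 0.0104% in CON lung. Spp1 is made by epithelial cells, bone cells and activated macrophages.

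Tnfrsf12a, the Fn14 receptor (ENSMUSG00000023905), had 183, 310, 304, 317 and 462 CPM in TB lung against 41.2, 46.4 and 49.2 CPM in CON lung. All 5 TB libraries lay above the CON range, and TB library 1 was the lowest of them. The change was 2.79 (SE 0.29, adjusted p = 6.39e-05), a 6.91-fold difference. Its ligand Tnfsf12, or TWEAK (ENSMUSG00000097328), moved the other way, with 18.3, 8.67, 21.3, 12.4 and 17.7 CPM in TB lung against 42.7, 41.4 and 38.6 CPM in CON lung. No TB library reached the CON range, and the change was −1.38 (SE 0.27, adjusted p = 0.00200). In RefSeq's GRCm38.p6 annotation Tnfsf12 overlaps the readthrough gene Tnfsfm13 and Tnfsf13os, and Tnfrsf12a overlaps Hcfc1r1, so reads could be split between them. The same holds for Il1a with Gm14023, Il1b with Il1bos and Adm with Gm28863. These 3 overlapping genes had at most 50, 20 and 1 counts in any lung library. Tnfsf12 and Tnfsfm13 summed fell by 1.35 on the log2 scale in lung (adjusted p = 0.00211), and Hcfc1r1 had a log2 change of 0.50 that did not pass (adjusted p = 0.123).

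Gdf15 (ENSMUSG00000038508) was the gene with the largest fall of the 10 in lung. It had 0.687, 0.437, 0.426, 1.14 and 0.661 CPM in TB lung, from 22 to 55 counts a library, against 6.51, 7.93 and 8.28 CPM in CON lung, from 400 to 471 counts. The groups were far apart, and the change was −3.50 (SE 0.37, adjusted p = 6.25e-05), 11.3-fold lower in TB lung, and −2.64 on log2(TPM + 1). GDF15 is a member of the TGF-beta superfamily induced by cellular stress in many tissues, and it is raised in blood in human cancer cachexia. Its receptor gene Gfral, known from the hindbrain, had a count of 0 in all 14 libraries.

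Il1b (ENSMUSG00000027398), the secreted interleukin-1 of myeloid cells, had 5.88, 9.56, 3.77, 3.19 and 5.11 CPM in TB lung against 16.6, 15.4 and 15.9 CPM in CON lung. Every TB library was below every CON library, and the change was −1.54 (SE 0.34, adjusted p = 0.00395). Of 7 neutrophil markers 2 fell and 1 rose in lung, where 29.3% of all genes tested were called lower and 30.4% higher. Their summed levels, 142 to 362 TPM in TB lung and 247 to 531 TPM in CON lung, overlap. The part of these markers in the Il1b result was not tested. Il1a (ENSMUSG00000027399), the interleukin-1 kept in epithelial and other cells until they are damaged, had 3.16, 0.933, 1.67, 2.61 and 4.94 CPM in TB lung against 2.47, 2.93 and 3.23 CPM in CON lung. Its TB libraries lay on both sides of the CON range, with a log2 change of −0.11 (adjusted p = 0.852) that turned to 0.12 without TB library 2 and to 0.02 without TB library 3.

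Adm (ENSMUSG00000030790) had 4.91, 1.65, 1.82, 9.11 and 9.96 CPM in TB lung against 10.3, 19.4 and 19.5 CPM in CON lung. The highest TB library came close to the lowest CON library, and the change of −1.58 (SE 0.60) just passed, at an adjusted p of 0.0463. The call was lost without any 1 of the 3 CON libraries (adjusted p = 0.0540, 0.124 and 0.125) and without TB library 1, 2 or 3 (adjusted p = 0.0846, 0.0596 and 0.0674).

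Tnf (ENSMUSG00000024401), tumour necrosis factor, had 5.92, 2.94, 1.82, 5.96 and 8.83 CPM in TB lung against 2.85, 2.27 and 1.87 CPM in CON lung. Of the TB libraries 4 were above all CON libraries and library 3 was below them, and the change of 1.13 (SE 0.50) did not pass (adjusted p = 0.0812). It passed without TB library 3 (adjusted p = 0.0203) and with DESeq2 (adjusted p = 0.0460). Pthlh (ENSMUSG00000048776), for PTHrP, had 0.295, 4.33, 1.91, 3.27 and 3.23 CPM in TB lung against 1.20, 1.94 and 1.69 CPM in CON lung. Library 1 was the lowest of all 8, library 3 lay inside the CON range and the other 3 TB libraries above it, with a log2 change of 0.69 (adjusted p = 0.404) that passed, at 1.00, without TB library 1 (adjusted p = 0.0398).

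Tnfsf11 (ENSMUSG00000022015), for RANKL, was near the limit of detection. It had 33, 43, 37, 4 and 3 counts in the TB lung libraries and 17, 24 and 22 counts in the CON lung libraries. Of the TB libraries 3 were thus above and 2 below all CON libraries, and the log2 change of 0.29 did not pass (adjusted p = 0.759) and turned to −0.05 without TB library 2.

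**Figure D2:**
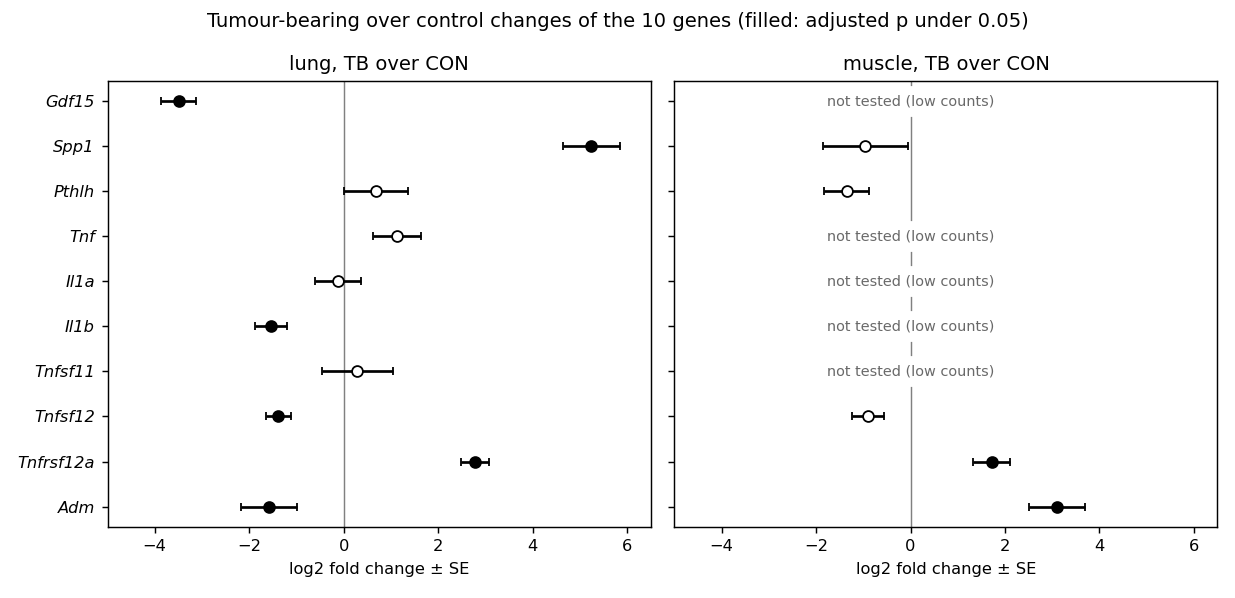
Log2 fold change of TB over CON (dots) with its standard error (bars) for each gene in lung (left) and gastrocnemius (right); filled dots have an adjusted p under 0.05. In lung Spp1 at 5.24 and Gdf15 at −3.50 are the ends of the range, and in muscle Tnfrsf12a at 1.72 and Adm at 3.10 are the filled dots, while 5 genes had too few counts to be tested there.

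In muscle, 2 of the 5 genes with enough counts to be tested rose (Tnfrsf12a and Adm), none fell, and 3 did not pass. With DESeq2 as well 0 of the 5 fell, while 2 (Pthlh and Tnfsf12) were lower in TB at an unadjusted p under 0.05 in edgeR. Over all genes tested 8.53% were called higher and 6.75% lower in TB muscle. Of the 5, 3 (Tnfrsf12a, Adm and Pthlh) had groups that did not overlap, as did 43.1% of all genes tested. The median log2 change of the 5 was −0.90, beside −0.03 over all genes. Upper-quartile scaling put the median of all genes in muscle at −0.25, with 760 genes higher and 1079 lower in place of 1226 and 970, and log2(TPM + 1) gave 157 higher and 258 lower in muscle, and 3594 higher and 7994 lower in lung with a median of −0.23.

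Tnfrsf12a had 78.9, 37.8 and 49.4 CPM in the 3 TB muscle libraries, against 22.1, 18.2 and 10.1 CPM in the 3 CON muscle libraries. All TB libraries were above all CON libraries. The change was 1.72 (SE 0.39, adjusted p = 0.0245), a 3.29-fold difference. Hcfc1r1, which overlaps Tnfrsf12a, had a log2 change of 0.39 in muscle that did not pass (adjusted p = 0.302). Adm had 13.2, 2.29 and 10.0 CPM in TB muscle, against 0.774, 0.989 and 1.22 CPM in CON muscle. TB library 2 was the lowest of its group and still above the CON range, and the change was 3.10 (SE 0.60, adjusted p = 0.0168), an 8.60-fold difference. Each of these calls was lost without any 1 of the CON libraries, with adjusted p of 0.0640, 0.0935 and 0.103 for Tnfrsf12a and 0.0665, 0.0745 and 0.0814 for Adm. Most calls over all genes were lost in the same runs, with 2196 in the main fit and 243, 141 and 106 without CON library 1, 2 and 3. On log2(TPM + 1) the Tnfrsf12a and Adm calls were also lost, with changes of 1.75 (adjusted p = 0.112) for Tnfrsf12a and 1.86 (adjusted p = 0.0726) for Adm.

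Pthlh had 0.527, 0.283 and 0.733 CPM in TB muscle, from 26, 11 and 19 counts, against 1.61, 0.959 and 1.33 CPM in CON muscle, from 75, 32 and 35 counts. All TB libraries were below all CON libraries, but the change of −1.35 (SE 0.48) did not pass (adjusted p = 0.0804). Tnfsf12 had 4.46, 6.41 and 3.44 CPM in TB muscle and 6.19, 9.56 and 11.02 CPM in CON muscle. TB library 2 lay inside the CON range on this scale and below it in TPM (4.35, against 4.49 to 5.27 TPM in CON muscle), and the change of −0.90 (SE 0.34, adjusted p = 0.0993) passed only without that library among the runs that left 1 out, at −1.15 (adjusted p = 0.0414). Tnfsf12 and Tnfsfm13 summed changed by −0.79 (adjusted p = 0.128), while Tnfsf13os, which overlaps Tnfsf12, had a log2 change of 1.35 (adjusted p = 0.0243). Without the strand setting of the counting, reads of these overlapping genes cannot be told apart.

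Spp1 had 1.68, 1.93 and 7.72 CPM in TB muscle and 1.07, 4.14 and 16.7 CPM in CON muscle. The third library of each group was the highest, the groups overlapped, and the change of −0.96 (adjusted p = 0.463) turned to 0.53 without CON library 3. Gdf15 had 8, 3 and 5 counts in TB muscle and 5, 2 and 1 counts in CON muscle, Tnf had 3, 1 and 1 in TB muscle and 1, 4 and 2 in CON muscle, and Il1b had 0, 5 and 3 in TB muscle and 5, 1 and 3 in CON muscle. A difference in these genes was not detectable at this depth, and for Il1a and Tnfsf11, at 0 in all 6 libraries, no fold can be given.

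Over all genes tested in muscle, 8.53% were called higher and 6.75% lower in TB. Of 7 neutrophil markers only 3 had enough counts to be tested in muscle, and all 3 rose. The filter can keep a gene for its counts in 1 group, so these 3 may have been tested because they were high in TB. Summed levels of the 7 were 7.65 to 13.0 TPM in TB muscle against 1.25 to 1.67 TPM in CON muscle, with Ly6g at 0 in all. Of 6 fibroblast markers 4 fell, with 180 to 327 TPM in TB muscle and 291 to 334 TPM in CON muscle. Of 9 macrophage and monocyte markers 1 rose, with 41.3 to 115 TPM in TB muscle and 45.6 to 71.4 TPM in CON muscle. The part of these lists in the muscle results was not tested.

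The TB effect in lung was set against that in muscle in 1 fit of all 14 libraries, for the 5 genes tested in both tissues. The fit treated the 14 libraries as independent, and the labels do not say whether lung and muscle came from the same mice. The difference of log2 changes passed for 2 of the 5, 1 in each direction, where 35.6% of all genes passed, 16.6% more positive and 19.0% more negative in lung. On log2(TPM + 1) the interaction gave 2401 genes more positive and 6624 more negative in lung, in place of 3287 and 3770, with a median of −0.33. For Spp1 the difference was 6.20 (SE 1.16, adjusted p = 0.00100), from 5.24 in lung and −0.96 in muscle. For Adm it was −4.68 (SE 0.93, adjusted p = 0.00154), from −1.58 in lung and 3.10 in muscle. Adm was thus higher in all 3 TB muscle libraries and lower in all 5 TB lung libraries than in their CON libraries, within the limits of those calls given above. For Tnfrsf12a, which rose in both tissues, the difference of 1.08 (SE 0.47) did not pass (adjusted p = 0.0881). The differences for Pthlh, at 2.06 (adjusted p = 0.0960), and Tnfsf12, at −0.51 (adjusted p = 0.423), did not pass either. Pthlh did pass with DESeq2 (2.13, adjusted p = 0.0493), and Tnfsf12 on log2(TPM + 1) (−1.26, adjusted p = 0.0319). Without TB lung library 1, 4 of the 5 passed, since Tnfrsf12a (1.24, adjusted p = 0.0403) and Pthlh (2.36, adjusted p = 0.00892) joined, and Tnfrsf12a also passed without CON muscle library 3 (adjusted p = 0.0371) or TB muscle library 1 (adjusted p = 0.0366).

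The 250 bases before the transcription start are shown for the genes that rose in muscle (Tnfrsf12a and Adm) and for those with the largest rise and fall in lung (Spp1 and Gdf15). They come from RefSeq on GRCm38.p6, which may differ from the build of the deposited files, run 5′ to 3′ in the gene's direction, and hold matches to 4 searched motifs in capitals; for Spp1 and Gdf15, which have 2 annotated starts, the first is shown.
Tnfrsf12a (chr17:23677450-23677699, minus strand): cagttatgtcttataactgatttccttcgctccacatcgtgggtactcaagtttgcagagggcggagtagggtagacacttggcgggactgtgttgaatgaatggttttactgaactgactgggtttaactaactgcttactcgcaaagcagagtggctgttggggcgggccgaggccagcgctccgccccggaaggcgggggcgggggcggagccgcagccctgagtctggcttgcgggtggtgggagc
Adm (chr7:110627407-110627656, plus strand): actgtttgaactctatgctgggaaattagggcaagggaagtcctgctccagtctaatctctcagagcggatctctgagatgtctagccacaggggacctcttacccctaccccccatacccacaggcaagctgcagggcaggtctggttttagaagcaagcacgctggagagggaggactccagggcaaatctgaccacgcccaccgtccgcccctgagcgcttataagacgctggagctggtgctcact
Spp1 (chr5:104434861-104435110, plus strand): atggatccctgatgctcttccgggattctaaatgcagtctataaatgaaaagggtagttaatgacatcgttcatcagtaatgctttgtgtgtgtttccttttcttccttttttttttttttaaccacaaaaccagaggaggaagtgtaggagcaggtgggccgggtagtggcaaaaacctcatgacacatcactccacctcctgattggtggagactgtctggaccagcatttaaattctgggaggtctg
Gdf15 (chr8:70632457-70632706, minus strand): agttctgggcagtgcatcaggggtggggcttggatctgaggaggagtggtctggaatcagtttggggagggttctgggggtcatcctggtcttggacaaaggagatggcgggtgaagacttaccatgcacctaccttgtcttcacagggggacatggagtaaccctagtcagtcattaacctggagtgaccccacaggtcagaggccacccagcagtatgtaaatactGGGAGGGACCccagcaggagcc

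The motifs, searched on both strands, were the AP-1 element TGANTCA, held by 6.75% of 32851 promoter windows of this length, the ATF and C/EBP element TGATGNAA (3.45%), a loose kappaB-like pattern of GGGA, any 4 bases and CC (17.6%) and the hypoxia element core ACGTG (16.6%). Of the 4 windows above only that of Gdf15 held a match, of the kappaB-like pattern, starting 22 bases before the start, and the window of its second start held ACGTG on both strands. Among the other genes with an entry, Il1a held an AP-1 element at 12 bases and Tnfsf11 the kappaB-like pattern at 155 bases before the start, and Il1b, Tnf and Pthlh held none of the 4. Tnfsf12 had no entry. A match is a description of letters and no match says only that these letters are not in the window.

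The receptors, antagonists and signalling genes of these factors were described by list. Call counts of a list are to be read beside the shares over all genes, 59.7% in lung (30.4% higher, 29.3% lower) and 15.3% in muscle (8.53% higher, 6.75% lower), and no list was tested against other genes. Of the GDF15 receptor genes only Ret was tested. In muscle Ret changed by −1.701 (adjusted p = 0.0183), with 1.64 ± 0.544 CPM in TB muscle and 5.28 ± 0.713 CPM in CON muscle, and the call was lost in the fit of 14 libraries (adjusted p = 0.0820). In lung Ret had a change of 1.696 that did not pass (adjusted p = 0.0700), with TB libraries from 3.73 to 33.4 CPM and CON libraries from 4.59 to 5.38 CPM. It passed there without TB library 1 or 4, with DESeq2 and in the fit of 14 libraries, with adjusted p from 0.0243 to 0.0338.

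Of 9 osteopontin receptors, 2 rose and 4 fell in lung, near the 59.7% called over all genes (median log2 change −0.23), and 1 fell and 8 did not pass in muscle (median −0.47). In lung the integrin subunit genes Itga8 and Itga9 had the smallest p: Itga8 was at 2.03 ± 1.07 CPM in TB lung and 235 ± 16.0 CPM in CON lung, a change of −6.85 (adjusted p = 1.62e-05), and Itga9 changed by −3.81 (adjusted p = 1.51e-06). Cd44 rose, at 497 ± 170 CPM in TB lung and 136.9 ± 16.5 CPM in CON lung (1.86, adjusted p = 0.000921), and is named after its value was seen. In muscle the leukocyte integrin gene Itga4 changed by −1.76 (adjusted p = 0.0354), and Itgb5 by 0.80, which did not pass (adjusted p = 0.0614). The PTHrP receptor gene Pth1r did not pass in lung (−0.39, adjusted p = 0.313) or in muscle (−0.61, adjusted p = 0.443).

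Of the 3 genes for tumour necrosis factor receptors and shedding, the sheddase gene Adam17 fell in lung, by 0.82 on the log2 scale (adjusted p = 0.00522), with 32.3 ± 7.24 CPM in TB lung and 56.9 ± 1.15 CPM in CON lung. Tnfrsf1b did not pass there (0.12, adjusted p = 0.561), nor did Tnfrsf1a (0.95, adjusted p = 0.0544) or Adam17 (−1.19, adjusted p = 0.0604) in muscle, where all TB libraries were above CON for Tnfrsf1a and below for Adam17. With DESeq2 Tnfrsf1a (adjusted p = 0.0194) and Adam17 (adjusted p = 0.0245) passed, as both did with no filter, in the fit of 14 libraries, with the replicate block (adjusted p = 0.0438 and 0.0276) and without TB library 2, and Adam17 also with upper-quartile scaling.

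Of 8 interleukin-1 receptor, antagonist and processing genes, 4 rose and 2 fell in lung, where 59.7% of all genes were called (median 1.03, beside 0.07 over all genes). Casp1, the protease that cleaves the interleukin-1 beta precursor, was at 60.2 ± 31.3 CPM in TB lung and 5.56 ± 0.223 CPM in CON lung, a change of 3.44 (adjusted p = 0.000173). Il1rap, the shared receptor chain, fell to 3.29 ± 0.442 CPM in TB lung, against 20.6 ± 1.14 CPM in CON lung, a change of −2.64 (adjusted p = 9.08e-06). Il1rn, the antagonist, had 41.2 ± 32.2 CPM in TB lung and 6.14 ± 0.404 CPM in CON lung, a change of 2.75 (adjusted p = 0.00356). In muscle 6 of the 8 were tested, with 2 higher, 1 lower and 3 not past: the decoy receptor Il1r2 changed by 1.92 (adjusted p = 0.0396), the signalling receptor Il1r1 by 1.27 (adjusted p = 0.0443), and the pore-forming Gsdmd by −1.46 (adjusted p = 0.0493).

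The ratio of Il1b to its antagonist Il1rn was computed per library on TPM with 0.1 added. It was 0.0955, 0.514, 0.251, 0.0711 and 0.121 in the TB lung libraries, against 4.0, 3.09 and 3.90 in the CON lung libraries. The antagonist was thus the more abundant transcript in all 5 TB lung libraries and the cytokine in all 3 CON lung libraries. The log2 ratio was −2.64 ± 1.15 in TB lung and 1.86 ± 0.206 in CON lung, a difference of −4.50, with an exact two-sided permutation p of 0.0357, the smallest that 56 splits allow. Adjusted by Benjamini-Hochberg over the 3 ratio comparisons that could be made, the exact p was 0.107. No outcome could have passed this adjustment, since the smallest exact p possible was 0.0357 for each lung ratio and 0.1 in muscle. The adjusted value thus cannot decide whether the ratio differs. In muscle, with 0 to 6 counts a gene, the log2 ratio was −0.46 ± 0.699 in TB muscle and 0.19 ± 0.640 in CON muscle (exact permutation p = 0.3, with 0.1 the smallest possible).

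RANK (Tnfrsf11a), the receptor of RANKL, fell in lung by 1.39 on the log2 scale (adjusted p = 0.0157), and osteoprotegerin (Tnfrsf11b), its decoy, changed by 2.51 (adjusted p = 0.0216), with 6.27 to 52.7 CPM in TB lung and 3.27 to 3.52 CPM in CON lung. The osteoprotegerin call was lost without any 1 CON library (adjusted p = 0.0661 to 0.0699), with limma-voom (adjusted p = 0.0676) and on log2(TPM + 1) (adjusted p = 0.116), and the RANK call without CON library 2 (adjusted p = 0.0554). The log2 ratio of RANKL to osteoprotegerin was −4.26 ± 1.72 in TB lung and −2.48 ± 0.198 in CON lung, a difference of −1.78 that did not pass an exact two-sided permutation test (p = 0.179). TB libraries 2 and 3, at −2.39 and −2.64, lay beside the CON libraries and the other 3 lay below them. With 1 TPM added in place of 0.1 the difference was −1.24 and the exact p 0.0357, or 0.0536 adjusted over the 3 ratio comparisons, an adjustment that no outcome could pass. In muscle only Tnfrsf11a was tested (0.17, adjusted p = 0.854), and the ratio could not be formed.

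**Figure D3:**
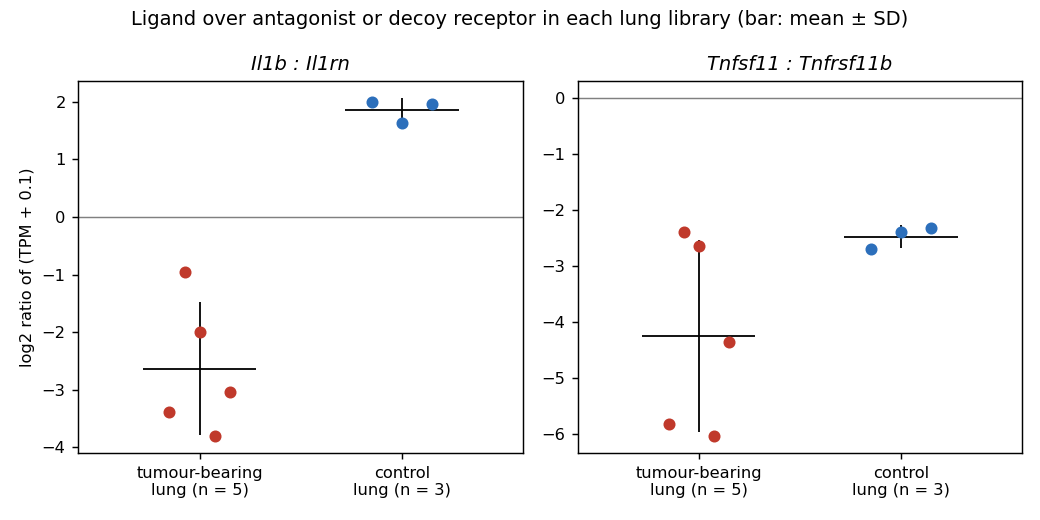
Log2 ratio of TPM with 0.1 added, per lung library (dots), with mean and SD (bars), for Il1b over its antagonist Il1rn (left) and Tnfsf11 over its decoy receptor Tnfrsf11b (right). TB libraries lie below 0 and CON libraries above 0 on the left, while on the right 2 of the 5 TB libraries lie beside the CON libraries.

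Of 7 TWEAK scavenger and adaptor genes, 1 fell in lung, where 59.7% of all genes were called, and 1 rose in muscle, where 15.3% were. Birc3, an inhibitor of apoptosis that binds TRAF adaptors, was at 16.9 ± 4.52 CPM in TB lung and 42.2 ± 3.08 CPM in CON lung, a change of −1.32 (adjusted p = 0.00102), and Map3k14 did not pass there (−0.49, adjusted p = 0.0790). In muscle Map3k14, the kinase NIK of the alternative NF-kappaB pathway, changed by 2.71 (adjusted p = 0.0438), with 4.32 to 48.6 CPM in TB muscle and 2.89 to 3.45 CPM in CON muscle, and by 1.22 without TB library 1. Traf6 did not pass in muscle (0.92, adjusted p = 0.109).

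Of 10 NF-kappaB response genes, 1 rose, 5 fell and 4 did not pass in lung, near the 59.7% called over all genes (median −0.50), and none of the 7 tested passed in muscle (median 0.59) with edgeR, where 2 had an unadjusted p under 0.05 and 2 passed with DESeq2. Icam1, an adhesion molecule, was at 26.4 ± 8.91 CPM in TB lung and 377 ± 42.1 CPM in CON lung, a change of −3.83 (adjusted p = 1.18e-05). Nfkbia, the inhibitor IkappaB alpha, changed by −1.56 in lung (adjusted p = 0.000633). In muscle Nfkb2 (0.85, adjusted p = 0.0504) and Relb (0.91, adjusted p = 0.0549), subunits of the alternative pathway, had all TB libraries above all CON libraries and lay just short of the threshold; both passed with DESeq2, in the fit of 14 libraries and without TB library 2, and Relb with the replicate block (adjusted p = 0.0495).

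Of 5 adrenomedullin receptor genes, 3 fell and 2 did not pass in lung, near the 59.7% called over all genes (median −1.28), with summed levels of 52.8 to 68.0 TPM in TB lung against 1221 to 1372 TPM in CON lung. The receptor Calcrl was at 18.9 ± 14.4 CPM in TB lung and 785 ± 63.6 CPM in CON lung, a change of −5.38 (adjusted p = 0.000153). Its partners Ramp2, at 11.9 ± 4.23 CPM in TB lung and 444 ± 5.82 CPM in CON lung, and Ramp3 changed by −5.22 (adjusted p = 2.63e-06) and −1.28 (adjusted p = 0.00274). Calcrl and Ramp2 are genes of endothelial cells, whose markers all fell in lung as given above, and the part of that in these results was not tested. In muscle Ramp1 changed by −1.75 (adjusted p = 0.0325), with 11.9 ± 6.36 CPM in TB muscle and 39.99 ± 2.69 CPM in CON muscle, and Calcrl by −0.80, which did not pass (adjusted p = 0.0775). Ramp2 (−0.24, adjusted p = 0.675) and Ramp3 (−0.88, adjusted p = 0.190) did not pass in muscle either.

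The 7 muscle calls among these genes (Ret, Itga4, Il1r2, Il1r1, Gsdmd, Map3k14 and Ramp1) were each lost without any 1 CON library, with adjusted p from 0.0733 to 0.175, and on log2(TPM + 1), with adjusted p from 0.0726 to 0.235. Muscle calls over all genes, 2196 in the main fit, were 106 to 243 without 1 CON library and 415 on log2(TPM + 1). Itga4, Il1r2, Il1r1, Gsdmd and Map3k14 were also lost without TB library 1 or 3, and Ramp1 without TB library 3. Upper-quartile scaling lost Il1r2, Il1r1, Gsdmd and Map3k14 (adjusted p = 0.0643, 0.0675, 0.0512 and 0.0527), and limma-voom lost Il1r1, Gsdmd and Map3k14 (adjusted p = 0.0530, 0.0516 and 0.09996).

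**Figure D4:**
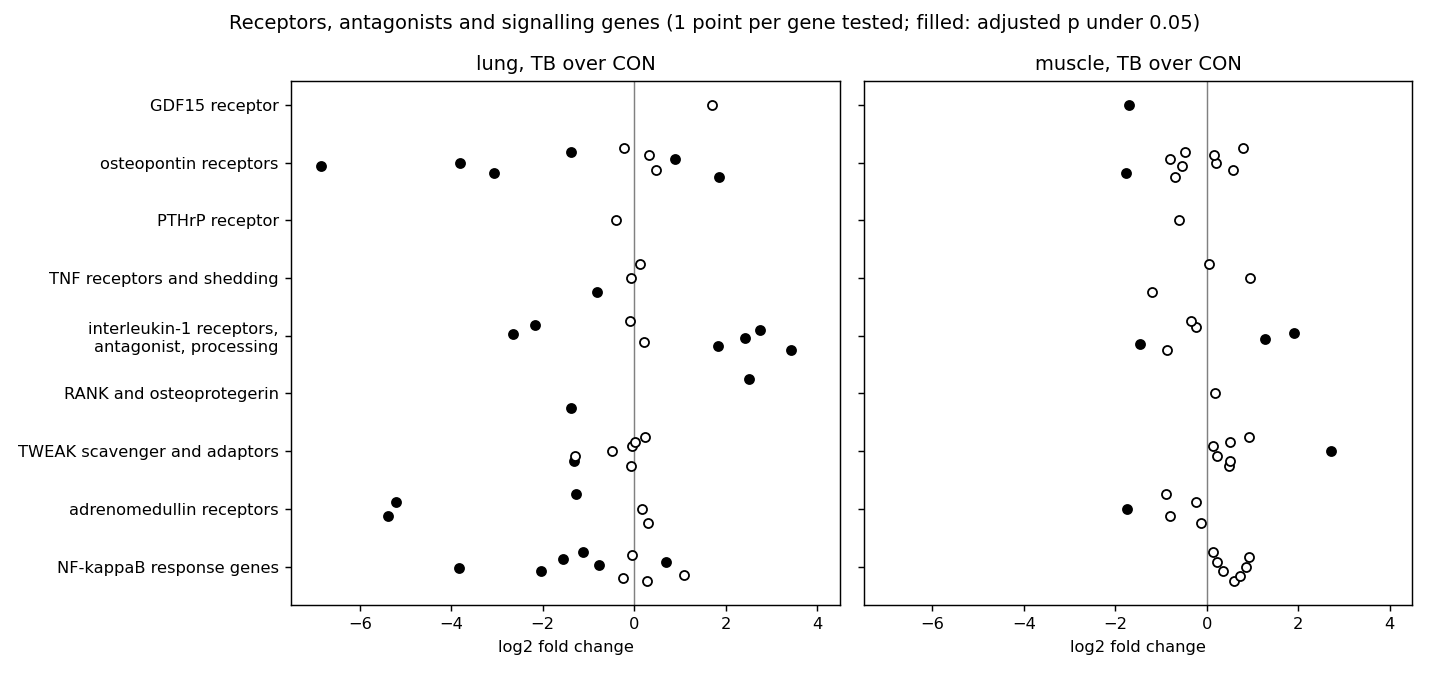
Log2 fold change of TB over CON for each tested gene of the receptor, antagonist and signalling lists (1 dot per gene, rows are lists) in lung (left) and gastrocnemius (right); filled dots have an adjusted p under 0.05. The adrenomedullin receptor and osteopontin receptor rows hold the lowest lung values, Calcrl at −5.38 and Itga8 at −6.85, and the muscle panel holds 7 filled dots.

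The genes whose pattern over the 14 libraries was most like that of a factor were found by the root mean square difference in log2 CPM after centring, among 14446 genes. For Tnfrsf12a these were Dera (0.26), Rbm3 (0.35) and Cct2 (0.38), beside a spread of Tnfrsf12a around its own mean of 1.26. For Adm they were Mafk (0.58), Ciart (0.58) and Cdkn1a (0.60), beside a spread of 1.41, for Spp1 Ect2 (0.83) and Prkg2 (0.87), beside 3.68, and for Gdf15 Lrrc46 (0.53), Zfp36 (0.57) and Adcy3 (0.60), beside 1.82. All of these share the same 14 libraries and the difference between the tissues. Tnfsf12 was most like Tnfsfm13 (0.29), the readthrough gene that shares its exons.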

How the data were processed

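The authors deposited, for each of the 14 libraries (MGIEasy directional kit, reads of 100 bases, per the labels), RSEM expected counts, which are estimated per gene and need not be whole, and TPM. Trim Galore, STAR 2.7.9a and RSEM 1.3.3 are named in the submitters' processing notes; their settings, the strand option and the build behind the files were in no source used here. Gene symbols came from a table that matched 52083 of 55416 identifiers (94.0%).

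Expected counts were rounded and tested per tissue by edgeR 4.0.16 under R 4.3.3 (filterByExpr filter, TMM scaling, two-sided quasi-likelihood test, Benjamini-Hochberg over all genes tested, threshold 0.05); lung minus muscle was an interaction in 1 fit of 14 libraries. SE is the absolute log2 change over the square root of F. The deposited TPM served for levels, for ratios with 0.1 added and exact permutation tests, and for 1 alternative, limma-trend (limma 3.58.1) on log2(TPM + 1). Other alternatives were other scalings and filters, DESeq2 1.42.0, limma-voom, a robust fit, a replicate block and leaving out each library; the sum of Tnfsf12 and Tnfsfm13 was added after seeing the data. The code of the fits was checked on simulated counts with the same spread for all genes and few, balanced changes. That setting is simpler than these data and does not measure the accuracy of the calls here. None of the 19 pairs of libraries within a group was a duplicate (chi-square per degree of freedom 21.3 to 480). Pairs across groups were not compared.

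The 10 genes and all lists were chosen with earlier results of these data known. Named were all 10 genes, the 2 genes of each list with the smallest p in each tissue, any further call in lists with 5 or fewer, and the 3 genes most like each of the 10 with enough counts; 1 of these is not reported here.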

Additional observations from a re-analysis of the deposited data

Results flagged for a closer look

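For 2 of the 10 genes the TB effect differed between the tissues by the interaction test in edgeR. Spp1 differed by 6.20 (log2, lung minus muscle), with adjusted p from 3.35e-08 to 0.00449 over the 22 alternatives, and all 5 TB lung libraries lay above the 3 CON lung libraries while the muscle groups overlapped. Adm differed by −4.68, with adjusted p from 5.84e-06 to 0.00715 over the 22 alternatives. All 3 TB muscle libraries lay above CON and all 5 TB lung libraries below CON for Adm, although each tissue's own call was lost when single libraries were left out. The causes were not tested.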

How the results depend on the processing

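Of 931 values recomputed for the 10 genes and the named partners, 809 kept their direction and side of the threshold, 69 lost and 42 gained a call and 11 reversed. The muscle count of 2196 genes became 4031 with no filter, 3658 with DESeq2, 3459 in the fit of 14 libraries and 415 on log2(TPM + 1). It was 106 to 243 without 1 CON library and 1129 to 4513 without 1 TB library. The 2 muscle calls among the 10 genes became 0 on log2(TPM + 1) and 0 to 3 without 1 library, and the 2 interaction calls became 2 to 4. Lung counts without 1 library ran from 9405 to 11674 genes and from 5 to 6 of the 10, and interaction counts from 5703 to 7641. The Il1b to Il1rn difference in lung ran from −4.92 to −4.21 without 1 library, where the smallest exact permutation p possible is 0.0571 or 0.0952. The Tnfsf11 to Tnfrsf11b difference was −1.24 with 1 TPM added (exact p = 0.0357, adjusted 0.0536). Reversals were Spp1 in muscle without CON 3 (0.53, and −1.99 without TB 3); in lung Tnfsf11 with limma-voom (−0.22), on log2(TPM + 1) (−0.037) and without TB 2 (−0.051, and 0.58 without TB 5), Il1a without TB 2 (0.12) and TB 3 (0.02, and −0.42 without TB 5), and Tnfrsf1b on log2(TPM + 1) (−0.34); and in muscle Tnfrsf11a with upper-quartile scaling (−0.094), without TB 1 (−0.042) and without TB 3 (−0.089, and 0.60 without TB 2). Lung Pthlh also reversed, from 0.69 to −0.14, with the replicate number as a block. The labels do not say whether replicate numbers pair the samples, and the main fits used no pairing. In muscle, deviations of same-numbered TB and CON samples correlated at 0.36, −0.046 and 0.37. Those of TB 1 with CON 3 and of TB 3 with CON 1 correlated at −0.34 and −0.405. In lung the highest correlation of same-numbered samples was 0.058. Whether the number marks a pairing or a batch in muscle cannot be told from these values. With the number as a replicate block the muscle count was 3303 genes, lung Pthlh was −0.14, lung Adm was −2.71, the RANK and osteoprotegerin calls in lung were lost (adjusted p = 0.0668 and 0.0738), Tnfrsf1a, Adam17 and Relb in muscle passed, and every call of the 10 genes within a tissue stood. The causes of these shifts were not tested. Low counts limit Gdf15, Tnf and Il1b in muscle and Tnfsf11 in lung.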
